A study of Rattus norvegicus with 4 samples.

Results

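Cytochrome P450 genes encode haem-containing monooxygenases, and 67 of them were measured among 14506 genes named by a single-symbol row of the array. The members were all genes whose symbol starts with Cyp, a number, a letter and a number, where numbers may have several digits and a suffix may follow, as in Cyp2c6v1, Cyp3a23-3a1 and the pseudogene symbol Cyp2s1-ps1. Symbols of exactly 1 digit, 1 letter and 1 digit would give 54 genes. Cyp51 and Cyp11a1 were left out by that rule, and no member had more than 1 row. The tissue was retroperitoneal fat, a depot behind the abdominal cavity, of untreated male rats aged 4 months on a stock diet. The groups were 2 rats of the obese phenotype and 2 of the lean phenotype, all of the WNIN/Ob strain, and each rat gave 1 array. The labels name the phenotypes and give no allele that sets them apart, and they do not say whether rats shared a litter. All values are log2 intensities, differences are obese minus lean on that scale, and with 2 rats a group the precision of every value is limited. In bulk tissue, fewer cells of a type and less RNA per cell cannot be told apart.

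P450 enzymes insert an oxygen atom into a substrate and take their electrons from a partner, which is P450 reductase in the endoplasmic reticulum and ferredoxin in mitochondria. Families of low number mostly handle foreign compounds, the Cyp4 family and Cyp2j and Cyp2u genes hydroxylate or epoxidise fatty acids, and other families make or break down steroids, bile acids, vitamin D and retinoids. Liver is the main site of the foreign-compound enzymes, and the fatty acid and steroid enzymes have their own tissue patterns. By these roles the 67 genes comprised 33 of foreign-compound metabolism, 16 of fatty acids and eicosanoids, 6 of sterols and bile acids, 5 of vitamin D and retinoids, 5 of steroid hormone synthesis and 2 with no assigned role.

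Adipocyte markers were high on all arrays. Adipoq, the adiponectin gene of adipocytes, was at 11.99 and 12.29 in the obese rats, against 12.11 and 11.86 in the lean rats. Array medians over all rows ran from 39.9 to 44.5 in linear intensity. Lean rat 1 stood apart by skeletal muscle markers, whose 12 measured genes summed to 717 and 531 in linear intensity in the obese rats, against 35579 in lean rat 1 and 726 in lean rat 2. The interquartile range of log2 values was 2.77 and 2.76 in the obese rats, against 2.63 in lean rat 1 and 2.24 in lean rat 2, whose spread was the narrowest.

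Most P450 genes were not above the level of olfactory receptor genes, a family known mainly from the nose that served as a measure of background. The stricter level was the 95th percentile of the 4-array means of 53 genes with an Olr symbol, 5.74, and 12 of 67 P450 genes (17.9%) exceeded it, against 52.4% of all genes. Olr1 carries such a symbol but is the oxidised LDL receptor, at a mean of 7.46 in obese and 4.18 in lean rats, and without it the level was 5.47 and 15 P450 genes exceeded it. The wider level used all 1104 olfactory receptor genes with Olr or Or symbols, without Olr1, and lay at 4.94. It was exceeded by 21 P450 genes (31.3%), against 68.9% of all genes. The remaining 46 genes were below both levels.

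The 12 genes above the stricter level were Cyp4b1, Cyp4f5, Cyp4f6, Cyp4v3, Cyp2u1 and Cyp2j4 of fatty acid metabolism, Cyp1b1, Cyp2b2, Cyp2d1, Cyp2d4 and Cyp2t1 of the foreign-compound families, and Cyp20a1, an orphan member. Of these, 9 were above each array's own 95th percentile of Olr genes on all 4 arrays. The exceptions were Cyp2j4, Cyp2d1 and Cyp2b2, and Cyp2b2 passed on the 2 obese arrays alone. No member of sterol and bile acid metabolism, of vitamin D and retinoid metabolism or of steroid hormone synthesis exceeded the stricter level. Without Olr1 that level was 5.47, and Cyp27a1 of sterol metabolism, Cyp2b1 and Cyp2e1 also exceeded it. Just inside the level were Cyp2d1 (5.76) and Cyp2b2 (5.75), and just outside were Cyp27a1 (5.71), the mitochondrial sterol side-chain hydroxylase, and Cyp2b1 (5.53).

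**Figure D1:**
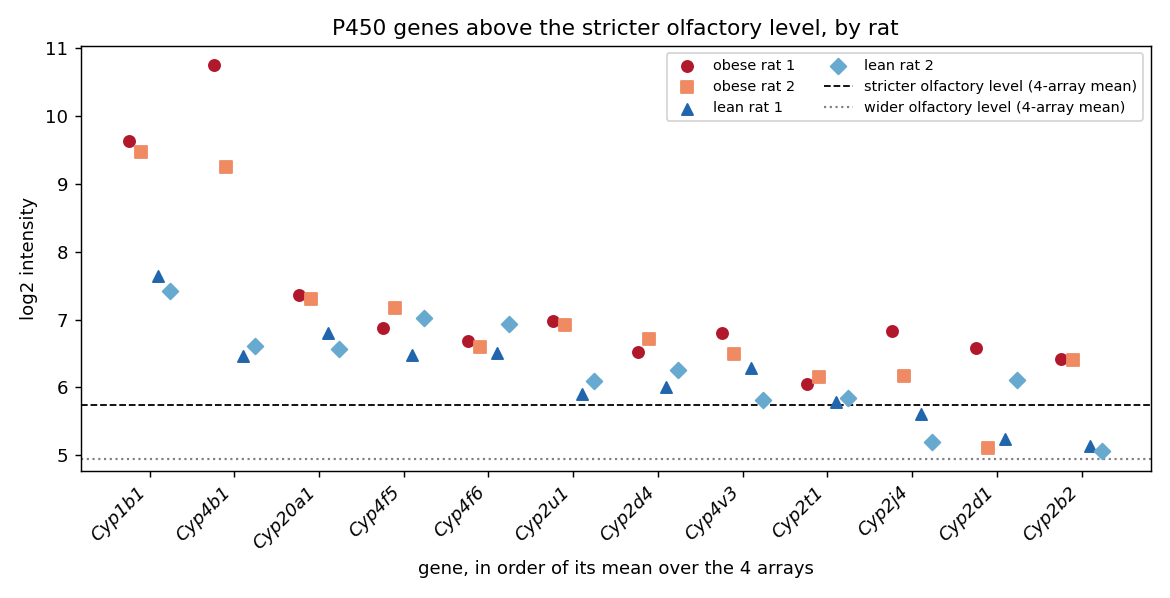
Log2 intensity (vertical axis) of the 12 P450 genes above the stricter olfactory level, with 1 point for each rat and genes ordered by their mean over the 4 arrays. The dashed line is the stricter level (5.74) and the dotted line the wider one (4.94); both obese rats lie above both lean rats for 9 of the 12 genes, most widely for Cyp4b1 and Cyp1b1.

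Obese and lean fat differed past the threshold in 2 of the 67 genes, Cyp4b1 and Cyp1b1, and both rose. The test was limma over all 14506 genes with Benjamini-Hochberg adjustment and a threshold of 0.05. It called 0.841% of all genes (0.772% higher and 0.0689% lower in obese rats), against 2.99% of the P450 genes, a share that rests on 2 genes. An unadjusted p under 0.05 was found for 13 P450 genes (19.4%, against 15.3% of all genes), 7 higher in obese rats (9.93% of all genes) and 6 lower (5.33% of all genes). The 2 groups did not overlap, with obese rats higher, for 14 P450 genes (20.9%, against 26.4% of all genes) and, with obese rats lower, for 17 (25.4%, against 21.3% of all genes). The shares of 19.4%, 20.9% and 25.4% were near those of all genes, while the 6 lower genes were a larger share than 5.33%. The median difference of the 67 genes was -0.06, against 0.00047 for all genes, with 27 above 0 and 40 below. With 2 rats a group the smallest p an exact two-sided permutation test allows is 0.333, and limma passes the threshold only by borrowing the spread of other genes.

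Cyp4b1, a monooxygenase of the Cyp4 family known for extrahepatic expression and for activating certain protoxins in lung, showed the largest difference among the P450 genes. It was at 10.75 in obese rat 1 and 9.25 in obese rat 2, against 6.46 in lean rat 1 and 6.61 in lean rat 2. The obese rats lay well above the lean rats and differed more from each other than the lean rats did. The difference was 3.46 ± 0.47 (SE, n = 2 per group, limma adjusted p = 0.025), or 11.03-fold with a 95% interval of 5.17-fold to 23.5-fold. Without obese rat 1 it was 2.71 (6.56-fold) and without obese rat 2 it was 4.21 (18.5-fold), so the size depended on which obese rat was used. With quantile normalization between arrays it was 3.33 and just missed the threshold (adjusted p = 0.052).

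Cyp1b1, an extrahepatic enzyme that oxidises oestradiol and polycyclic aromatic hydrocarbons and is a classic target of the aryl hydrocarbon receptor Ahr, was the other gene that rose. It was at 9.63 and 9.48 in obese rats 1 and 2, against 7.64 and 7.43 in lean rats 1 and 2. Rats of each group lay close together and the groups were well apart. The difference was 2.02 ± 0.30 (SE, n = 2 per group, limma adjusted p = 0.028), or 4.06-fold with a 95% interval of 2.53-fold to 6.51-fold. Leaving out any rat gave 1.92 to 2.13 and a call each time, and with quantile normalization it was 1.85 (adjusted p = 0.052).

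The bases before the start of both genes are shown because these are the P450 genes that rose. Each run is 250 bases, 5′ to 3′ on the gene's strand, from RefSeq of build GRCr8, with the core of the site bound by Ahr and its partner Arnt (GCGTG, or CACGC on the opposite strand) in capitals. The Cyp4b1 window is chr5:134393117-134393366 on the minus strand and the Cyp1b1 window is chr6:21094315-21094564 on the plus strand.
Cyp4b1: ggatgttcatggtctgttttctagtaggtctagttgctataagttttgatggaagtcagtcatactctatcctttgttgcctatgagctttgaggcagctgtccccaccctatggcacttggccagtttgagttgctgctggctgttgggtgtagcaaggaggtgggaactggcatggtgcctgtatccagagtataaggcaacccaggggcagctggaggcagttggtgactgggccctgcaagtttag
Cyp1b1: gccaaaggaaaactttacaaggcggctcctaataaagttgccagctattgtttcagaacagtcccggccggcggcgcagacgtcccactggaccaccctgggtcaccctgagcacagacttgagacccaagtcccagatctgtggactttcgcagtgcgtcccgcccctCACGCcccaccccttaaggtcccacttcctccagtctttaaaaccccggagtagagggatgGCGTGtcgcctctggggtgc
The Cyp1b1 window held the core once on each strand and the Cyp4b1 window did not hold these letters. The core occurred in 25.9% of all 33469 RefSeq promoters of the same length and in 15 of the 53 P450 genes with a promoter in that table (28.3%). Such a match is a description of the letters and not a site.

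Ahr itself was at 5.43 and 5.25 in the obese rats, against 6.95 in lean rat 1 and 5.30 in lean rat 2. Its values overlapped between groups (-0.78 ± 0.48, adjusted p = 0.472), and its difference rested on lean rat 1. Leaving out that rat gave 0.04 (adjusted p = 0.899), and leaving out lean rat 2 gave -1.61 (adjusted p = 0.020). Cyp1a1, the other classic Ahr target, was below both olfactory levels on every array, at 3.54 and 3.40 in the obese rats, against 3.80 and 3.61 in the lean rats. Nqo1, a quinone reductase that Ahr and Nfe2l2 can induce, was at 6.91 and 6.52 in obese rats, against 6.09 and 5.77 in lean rats, and did not pass (0.78 ± 0.28, adjusted p = 0.256).

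Some macrophage markers were higher in obese rats, as Cyp4b1 and Cyp1b1 were. Of 16 such markers 6 rose (Mpeg1, Itgb2, Itgam, Lyz2, Gpnmb and Mertk) and none fell, when 0.772% of all genes were called higher. For 11 of the 16 the groups did not overlap, with obese rats higher, against 26.4% of all genes. The groups overlapped for Cd163, C1qa, C1qb, Cd14 and Marco. Their summed linear intensity was 16657 in obese rat 1 and 10350 in obese rat 2, against 4051 in lean rat 1 and 3798 in lean rat 2. The sum was higher in both obese rats than in both lean rats. Of 13 adipocyte markers none passed, with a sum of 24701 and 30929 in the obese rats, against 20817 and 21130 in the lean rats. Of 13 progenitor and fibroblast markers none passed, with sums of 11372 and 11720, against 14531 and 14743. The part of these cell types in the P450 differences was not tested.

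**Figure D2:**
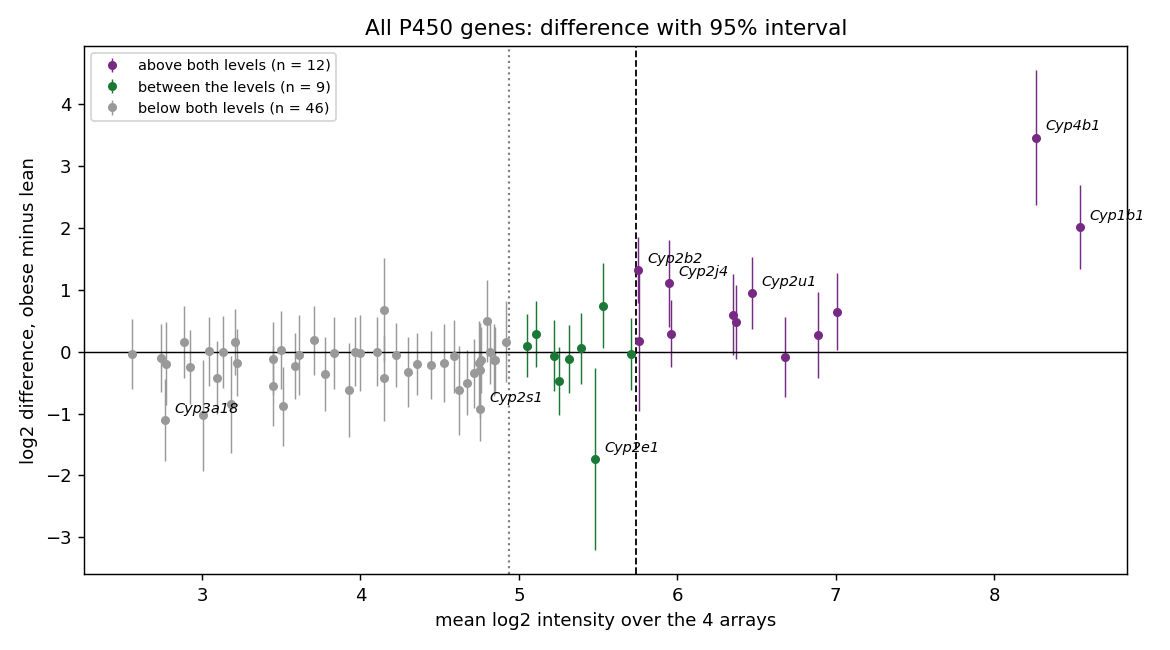
Log2 difference, obese minus lean (vertical axis), against the mean log2 intensity over 4 arrays (horizontal axis) for all 67 P450 genes, with the 95% interval of limma as bars. The dashed and dotted vertical lines are the stricter and wider olfactory levels; Cyp4b1 (3.46) and Cyp1b1 (2.02) are the genes called, and the grey points below both levels have a median of -0.16.

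Among the fatty acid and eicosanoid genes, Cyp2u1 and Cyp2j4 had the next largest differences above the stricter level. Cyp2u1, a hydroxylase of long-chain fatty acids, was at 6.98 and 6.92 in the obese rats, against 5.91 and 6.09 in the lean rats. The groups did not overlap, and the difference was 0.95 ± 0.25 (95% interval 0.36 to 1.54, adjusted p = 0.154). Cyp2j4, which oxidises arachidonic acid and retinal, was at 6.83 and 6.18 in the obese rats, against 5.61 and 5.19 in the lean rats, where lean rat 2 was not above its array's Olr level. Its difference was 1.11 ± 0.31 (95% interval 0.40 to 1.81, adjusted p = 0.168) and ran from 0.78 without obese rat 1 to 1.44 without obese rat 2.

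3 further genes of this role, the Cyp4f and Cyp4v enzymes that hydroxylate fatty acids or leukotrienes at the chain end, were above the level and near 0 or modestly positive. Cyp4v3 was at 6.80 and 6.50 in obese rats, against 6.29 and 5.81 in lean rats (0.60, 95% interval -0.06 to 1.25). Cyp4f5 was at 6.88 and 7.17 in obese rats, against 6.48 and 7.03 in lean rats, and Cyp4f6 at 6.68 and 6.60, against 6.50 and 6.94. The groups overlapped for both Cyp4f genes, with differences of 0.27 (95% interval -0.43 to 0.97) and -0.08 (95% interval -0.72 to 0.56). Of all 16 genes of this role, Cyp4b1 was called, 6 exceeded the stricter level and the median difference was -0.04.

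The measured neighbours of Cyp4b1 did not pass the test. In the RefSeq gene order Cyp4b1 adjoins Cyp4a1, a fatty acid hydroxylase of liver peroxisome proliferation, and Efcab14. Cyp4a1 was at 3.63 and 3.15 in the obese rats, against 3.47 and 3.55 in the lean rats, below both olfactory levels. Efcab14 was at 8.46 and 8.83, against 8.55 and 8.28 (0.23, adjusted p = 0.764). The 3 Cyp4a genes measured had differences between -0.36 and -0.12, and none was above either level. Rmdn2, next to Cyp1b1, was at 7.28 and 7.80 in obese rats, against 7.07 and 6.15 in lean rats (0.93, adjusted p = 0.298).

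Among the foreign-compound genes, Cyp2b2 came closest to the threshold after Cyp1b1. Cyp2b1 and Cyp2b2 are the phenobarbital-inducible pair of rat liver, controlled there by the receptor Nr1i3. Cyp2b2 was at 6.42 and 6.40 in the obese rats, against 5.13 and 5.06 in the lean rats. The rats of each group were nearly equal and the groups far apart, with a difference of 1.32 ± 0.23 (95% interval 0.78 to 1.85, adjusted p = 0.053). Since both lean values lay under their arrays' Olr level, it was on the measured means at least 1.88-fold higher in obese rats. That bound sets the obese mean against the mean of the higher of each lean value and its array's level. It takes no account of the spread between rats, and the 95% interval of the fold, 1.72 to 3.61, reaches below it. The gene was called with arrays centred on their medians (1.41, adjusted p = 0.047) and when a lean rat was left out. Leaving out lean rat 1 gave 1.35 (adjusted p = 0.032), and leaving out lean rat 2 gave 1.28 (adjusted p = 0.036). It was not called without obese rat 1 (adjusted p = 0.163), without obese rat 2 (adjusted p = 0.111), with quantile normalization (adjusted p = 0.060) or with all rows in the fit (adjusted p = 0.097).

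Cyp2b1, its neighbour with 1 unmeasured gene between them, was at 6.02 and 5.79 in the obese rats, against 5.53 and 4.79 in the lean rats. Its difference was 0.75 ± 0.30 (adjusted p = 0.297), and it depended on the lean rat used. Leaving out lean rat 1 gave 1.12 (adjusted p = 0.043), and leaving out lean rat 2 gave 0.38 (adjusted p = 0.467). Their promoter windows are shown because the pair are close relatives. The Cyp2b2 window is chr1:90722031-90722280 and the Cyp2b1 window chr1:90645869-90646118, both on the plus strand of GRCr8, with the same core in capitals.
Cyp2b2: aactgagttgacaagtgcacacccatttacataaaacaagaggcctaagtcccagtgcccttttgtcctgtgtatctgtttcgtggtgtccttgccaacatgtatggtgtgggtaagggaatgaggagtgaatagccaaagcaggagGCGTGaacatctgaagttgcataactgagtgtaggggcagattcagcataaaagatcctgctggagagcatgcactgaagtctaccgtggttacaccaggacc
Cyp2b1: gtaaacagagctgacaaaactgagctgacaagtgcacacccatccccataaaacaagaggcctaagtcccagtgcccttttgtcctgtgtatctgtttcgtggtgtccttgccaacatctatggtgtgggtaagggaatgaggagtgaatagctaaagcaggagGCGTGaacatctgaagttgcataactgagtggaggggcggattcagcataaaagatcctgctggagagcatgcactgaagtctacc
Over the aligned bases the windows were 96.6% identical, with 225 identical and 8 different positions, and 34 gap positions were not counted. The transcripts and probes were not compared here. Close relatives can share probe signal, so values of single members of the Cyp2b, Cyp2c, Cyp2d, Cyp3a, Cyp4a and Cyp4f families are uncertain in that respect. Nr1i3 was at 4.42 and 4.14 in obese rats, against 4.05 and 4.45 in lean rats, below both olfactory levels.

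The other genes of this role above the level did not pass. Cyp2d4, the Cyp2d gene of rat brain, was at 6.52 and 6.71 in obese rats, against 6.01 and 6.25 in lean rats (0.48, 95% interval -0.11 to 1.08). Cyp2t1 was at 6.05 and 6.16, against 5.79 and 5.84 (0.29, 95% interval -0.25 to 0.84). Cyp2d1, a hepatic drug-oxidising enzyme, was at 6.58 and 5.10 in obese rats, against 5.24 and 6.10 in lean rats, so rats of a group differed more than the groups did (0.17, 95% interval -0.96 to 1.29). Cyp20a1, the orphan member, was at 7.36 and 7.30 in the obese rats, against 6.81 and 6.57 in the lean rats (0.64 ± 0.27, adjusted p = 0.314).

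Over the 12 genes above the level, which hold both calls when 1.09% of genes above it were called, 9 did not overlap with obese rats higher, and 6 had an unadjusted p under 0.05, each higher in obese rats. Of all genes above that level 39.5% did not overlap with obese higher, and 15.1% had such a p with obese higher. The choice of these 12 favours genes that are high in a group, so the counts describe them and support nothing further. Their median difference was 0.62, against 0.21 for all genes above the level.

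**Figure D3:**
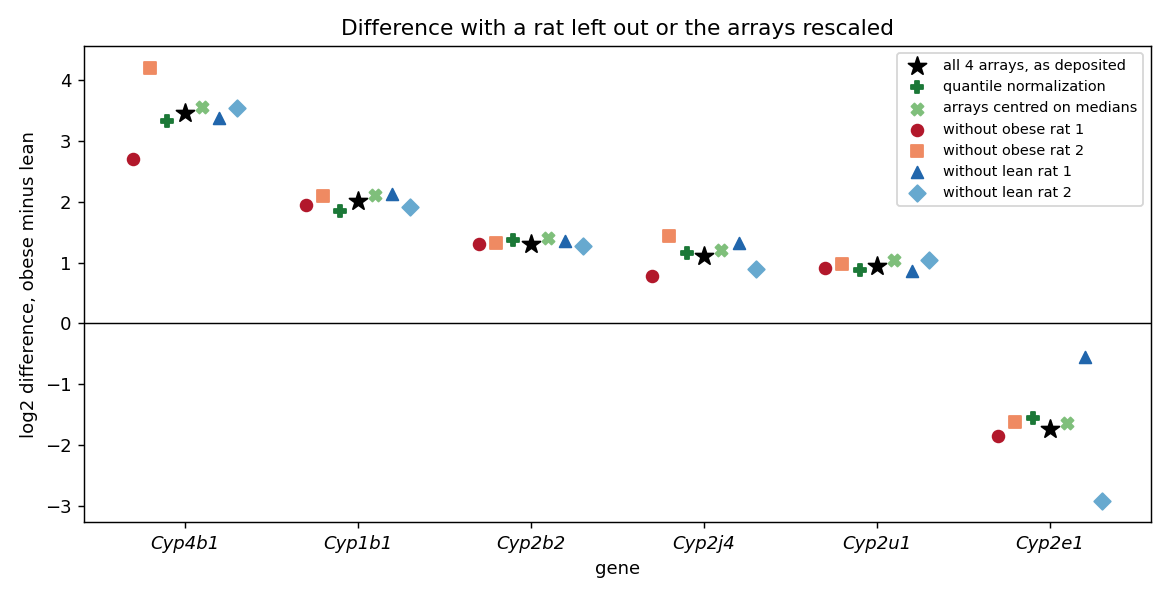
Log2 difference, obese minus lean (vertical axis), of 6 P450 genes with all 4 arrays (star), with each rat left out and with the arrays rescaled by quantile normalization or median centring. The symbol and colour give the setting; Cyp1b1 stays between 1.85 and 2.13, Cyp4b1 moves with the obese rat that is left out and Cyp2e1 with the lean rat that is left out.

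Cyp2e1, the ethanol-inducible enzyme, lay between the levels, and its difference depended on lean rat 1. Its 4-array mean of 5.48 was just above the stricter level without Olr1, 5.47. It was at 4.73 and 4.50 in the obese rats, against 7.53 in lean rat 1 and 5.17 in lean rat 2. Lean rat 1 alone exceeded its array's olfactory level, whether stricter or wider. The difference was -1.74 ± 0.64 (limma adjusted p = 0.266). Both obese values and that of lean rat 2 were not above their arrays' olfactory levels, so no bound on the fold is given. The fitted difference was -0.56 without lean rat 1 and -2.92 without lean rat 2. Leaving out obese rat 1 gave -1.85, and leaving out obese rat 2 gave -1.63. Both of these last fits kept the 2 lean rats, which lay far apart, so they add no support for a difference between the groups. The muscle markers were at a sum of 35579 on lean rat 1, and their part in its Cyp2e1 value was not tested. Ppara, a receptor that controls Cyp4a genes in liver, was at 4.82 and 5.67 in the obese rats, against 7.54 in lean rat 1 and 5.03 in lean rat 2, and its groups overlapped (-1.04, adjusted p = 0.517). Its sign turned when lean rat 1 was left out (0.22, adjusted p = 0.705), and leaving out lean rat 2 gave -2.30 (adjusted p = 0.031).

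The other genes between the levels showed no difference past the threshold. These were Cyp27a1, Cyp46a1, the brain cholesterol hydroxylase, Cyp26a1 and Cyp26b1, which break down retinoic acid, Cyp2r1, which hydroxylates vitamin D, Cyp4f18, Cyp2j3 and Cyp2b1. Cyp27a1 was at 5.68 and 5.70 in obese rats, against 5.93 and 5.52 in lean rats (-0.04, 95% interval -0.62 to 0.55). Cyp26b1 was at 5.36 and 5.17, against 5.23 and 5.52 (-0.11, 95% interval -0.66 to 0.44). Cyp4f18 was at 4.95 and 5.10, against 5.35 and 5.63 (-0.47, 95% interval -1.02 to 0.07), with both obese rats below both lean rats.

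The 46 genes below both levels tended to be lower in the obese rats, as the olfactory receptor genes were, on the deposited scale. Their median difference was -0.16, with 34 below 0 and none called. An unadjusted p under 0.05 in limma was found for 5, all lower in obese rats, as for 8.39% of all genes not above the stricter level. That reference set also holds 2395 genes above the wider level, so it reaches higher than the 46. With obese rats lower, the groups did not overlap for 15 of the 46, against 32% of that set and 21.3% of all genes. Lean rat 2 was the highest array for 35 of the 46 (76.1%), against 950 of the 1104 olfactory receptor genes (86.1%) and 38.2% of all genes. The olfactory receptor genes had a median difference of -0.39, and 20.6% of them had an unadjusted p under 0.05 with obese lower, against 5.33% of all genes. Of the 55 P450 genes not above the stricter level, 39 were below 0 with a median of -0.13, and with quantile normalization 24 were below 0 with a median of 0.04. The olfactory receptor genes kept a median of -0.21 under that scaling, with 846 of 1104 below 0. The direction of the dim P450 genes therefore changed with the scaling of the arrays, and that of the olfactory receptor genes did not.

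**Figure D4:**
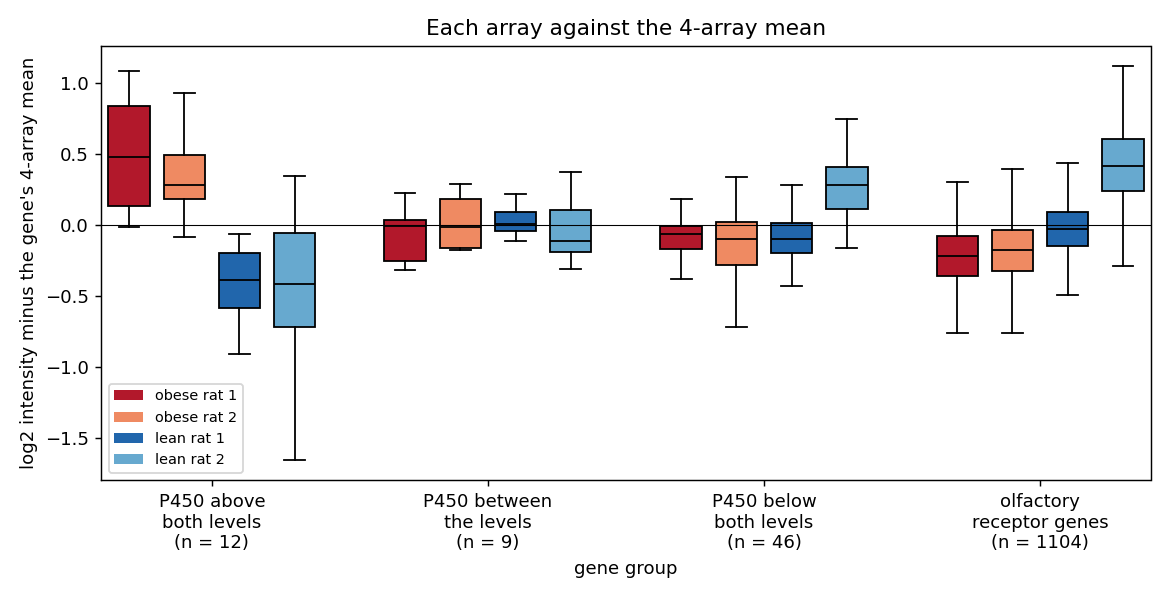
Log2 intensity of each array minus the gene's mean over the 4 arrays (vertical axis) for P450 genes in 3 ranges of level and for 1104 olfactory receptor genes, with boxes from the 25th to the 75th percentile, a line at the median, whiskers to the farthest value within 1.5 box lengths and points beyond them not drawn. Lean rat 2 is the highest array in the boxes of the 46 genes below both levels and of the olfactory receptor genes; the obese rats are the highest in the 12 genes above both levels.

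All 6 Cyp2c genes were highest in lean rat 2, with differences from -1.03 to -0.10 and a median of -0.74. Lean rat 2 was the highest array for 61.1% of all genes not above the stricter level. Cyp2c11, the male-specific enzyme of rat liver, was at 3.34 and 2.80 in obese rats, against 3.79 and 4.11 in lean rats. Of 5 Cyp3a genes, the main drug-oxidising family of liver and gut, 4 had both obese rats below both lean rats. The share was 32% of all genes not above the stricter level and 21.3% of all genes. Cyp3a18 was at 2.20 and 2.23 in obese rats, against 3.01 and 3.63 in lean rats. All values of both families were under each array's stricter level, so no fold is given. Without lean rat 1, Cyp2c13, Cyp2c6v1, Cyp3a18 and Cyp3a9 were called lower beside Cyp4b1, Cyp1b1, Cyp2b1 and Cyp2b2, 8 P450 genes in all (11.9%), when 7.45% of all genes were called. Leaving out any other rat gave 3 or 4 P450 genes.

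Cyp2s1, an epithelial enzyme that Ahr can induce, was at 4.38 and 4.21 in the obese rats, against 5.32 and 5.12 in the lean rats, and differed from this pattern in that lean rat 1 was its highest array. The difference was -0.92 ± 0.23 (adjusted p = 0.126). Of its 4 values the one in lean rat 1 exceeded the array's olfactory level. Mesothelial markers, of 8 measured, summed to 243 and 272 in the obese rats, against 1066 in lean rat 1 and 340 in lean rat 2, and their part in the Cyp2s1 values was not tested.

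The P450 genes of steroid hormone synthesis among the members were not above background. Cyp11a1 was left out by the rule and Cyp19a1 was not among the members, so neither is covered. Cyp11b1, Cyp11b2 and Cyp11b3 of the adrenal cortex, Cyp17a1 of androgen synthesis and Cyp21a1 of corticosteroid synthesis lay under both levels on all 4 arrays, at 3.04 to 4.03 in obese rats and 2.91 to 4.16 in lean rats. Their differences ran from -0.18 to 0.19. Of 8 other genes listed as adrenal cortex markers, 6 exceeded each array's stricter level on all 4 arrays: Star, Mc2r, Mrap, Scarb1, Fdx1 and Dlk1. Akr1b7 and Nr0b1 exceeded it on no array. Fdx1 also stood in the list of electron partners, and the presence of adrenal tissue was not tested. Star, which carries cholesterol into mitochondria, was at 7.69 and 7.49 in obese rats, against 5.33 and 5.77 in lean rats, and rose (2.04, limma adjusted p = 0.025). Kidney markers, of interest because the depot lies beside that organ, were likewise low, since none of 11 exceeded the stricter level on all 4 arrays and the sums were 269.9 and 309 in obese rats, against 264 and 341 in lean rats. Of 12 hepatocyte markers 9 were under the stricter level on every array, and sums of 529 and 322 in obese rats, against 896 and 1348 in lean rats, included Alb, at 7.79 and 6.48 in obese rats, against 9.23 and 9.82 in lean rats (-2.39, adjusted p = 0.068).

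Genes that serve P450 enzymes showed no call. Over 64 measured partner genes in 4 lists, limma called 0, and 10 had an unadjusted p under 0.05 (15.6%, against 15.3% of all genes), of which 8 were higher and 2 lower in obese rats. The groups did not overlap for 20 of the 64 with obese rats higher (31.2%, against 26.4% of all genes) and for 12 with obese rats lower (18.8%, against 21.3% of all genes), and the median difference was 0.05.

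Por, the P450 reductase, was at 8.51 and 8.34 in the obese rats, against 7.90 and 8.0 in the lean rats (0.47 ± 0.29, adjusted p = 0.472). The smallest p-values among the 10 electron partners were those of Pgrmc1, a haem-binding membrane protein, at 0.85, and Cyb5a, cytochrome b5, at 0.77. The median of that list was 0.38. In haem synthesis, whose 8 genes had a median of 0.51, Uros was at 0.77. Alas2, the red-cell form of the first enzyme, was at 7.85 and 6.43 in obese rats, against 8.33 and 9.11 in lean rats (-1.58, limma adjusted p = 0.215). The red-cell markers Hbb-b1 (9.97 and 8.29, against 10.48 and 11.42) and Slc4a1 (6.07 and 4.75, against 6.21 and 6.39) were also lower in obese rats. The part of red cells in the Alas2 values was not tested. Leaving out obese rat 1 gave -2.29 for Alas2 (adjusted p = 0.0025), and leaving out obese rat 2 gave -0.87 (adjusted p = 0.758). The form used in other tissues, Alas1, was at 9.14 and 9.41 in obese rats, against 9.03 in lean rat 1 and 7.46 in lean rat 2 (1.02, adjusted p = 0.369). Its difference was 1.81 without lean rat 1 (adjusted p = 0.034) but 0.24 without lean rat 2 (adjusted p = 0.761).

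Of 24 transcription factors that control P450 genes, the smallest p belonged to Nr1h2, an oxysterol receptor, at 0.87 (adjusted p = 0.296), and the next to Ahr. The median of that list was -0.07. Of 22 epoxide hydrolases and conjugating enzymes the median was -0.01, and Gsta4, a glutathione transferase for lipid aldehydes, came nearest to a call. Gsta4 was at 4.78 and 4.09 in obese rats, against 5.66 and 6.06 in lean rats (-1.42 ± 0.30, limma adjusted p = 0.084). Its obese values lay under the stricter level of their arrays. On the measured means, leaving aside the spread between rats, it was therefore at least 1.30-fold lower in obese rats. It was called without obese rat 1 (-1.77, adjusted p = 0.0082), and leaving out lean rat 1 also gave a call (-1.62, adjusted p = 0.041). Leaving out obese rat 2 (-1.08, adjusted p = 0.317) or lean rat 2 (-1.23, adjusted p = 0.111) gave none. Mgst2 was at 0.99 (adjusted p = 0.248), and ran from 0.62 without lean rat 2 (adjusted p = 0.357) to 1.35 without lean rat 1 (adjusted p = 0.048).

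**Figure D5:**
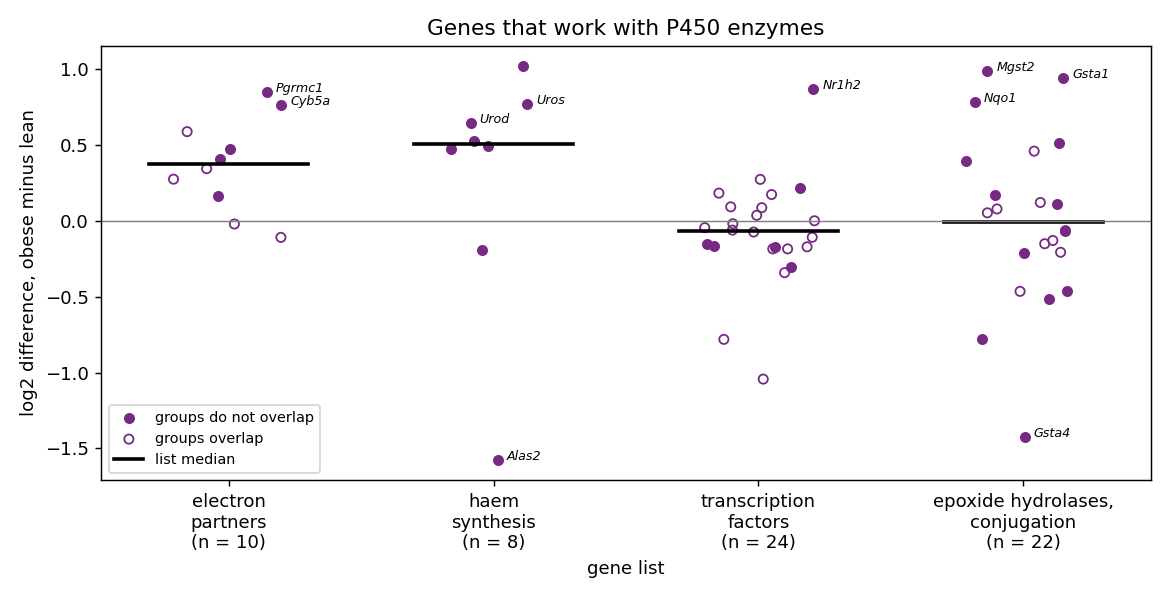
Log2 difference, obese minus lean (vertical axis), of the genes in 4 lists that serve P450 enzymes, with filled points where the groups do not overlap and a bar at each list's median. Genes with an unadjusted p under 0.05 are named; the medians are 0.38, 0.51, -0.07 and -0.01 from left to right.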

How the data were processed

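Per the labels' protocols, RNA of 500 mg of fat per rat was prepared with Trizol, and 100 ng was amplified and labelled with Affymetrix kits. The deposited values are intensity values, and the submitters' processing notes name RMA, with no version. Their range, 2.03 to 12791, shows a linear scale, and log2 was taken here. Of 29214 rows, 15310 had 1 symbol in the platform annotation, 323 had several and 13581 had none, and rows without exactly 1 were left out. For 527 genes with several rows the row with the highest 4-array mean was kept. Groups came from the sample titles. The fit was limma 3.58.1 in R 4.3.3 (lmFit, eBayes with a variance trend, no covariates, no filter on dim genes), Benjamini-Hochberg over all 14506 genes, and it was tested on simulated data. No sample was dropped except where stated.

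The members, gene lists and tests were chosen with earlier results of these data known. Per-sample values are given for P450 genes above the stricter olfactory level that were called, had an unadjusted p under 0.05 or lay next to the level, and for others above it; Cyp2e1, Cyp2s1, Cyp4f18, Cyp26b1, the Cyp2c, Cyp3a, neighbour and promoter genes, and Cyp1a1, Por, Nqo1, Ppara, Nr1i3 and Alas1, were chosen after their values were seen. The wider olfactory set and the removal of Olr1 were added after seeing the data. All 67 members matched a RefSeq gene and 53 had a RefSeq promoter; the start given is that of GRCr8. Figures were drawn with matplotlib 3.10.9. Alternative settings were quantile normalization, median centring, a fit blocked on rat number, one without the variance trend, a filter on dim genes, averaging or keeping all rows, an adjusted p under 0.10, other olfactory levels and each rat left out.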

Additional observations from a re-analysis of the deposited data

How the results depend on the processing

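Over 11 other fits, Cyp4b1 and Cyp1b1 kept their direction in each and were called in all but quantile normalization, where no P450 gene was called (0). The number of P450 genes called was 2, and leaving out each rat gave 3 to 8. The number of partner genes called was 0, and leaving out each rat gave 0 to 4. The partner count was 1 with the rat number as a replicate block (Gsta4) and 1 at an adjusted p under 0.10. Of all genes, 122 were called, against 327 with the replicate block, 75 with quantile normalization, 70 with genes above the olfactory level only, 72 with all rows in the fit, 301 at an adjusted p under 0.10 and 268 to 1081 with a rat left out. With the replicate block and with median centring 3 P450 genes were called, Cyp2b2 beside both. Deviations of same-numbered rats correlated at 0.02 across genes, a value from a single set of rats that cannot show whether they were paired. The labels give no pairing, so the main fit used none. The number of P450 genes above the olfactory level was 12, against 50 with the median of Olr genes, 21 with all olfactory receptor genes and 12 to 16 with a rat left out. Signs turned for several genes. Without lean rat 1, Ahr was at 0.04 and Ppara at 0.22, against -0.78 and -1.04 with all arrays. Cyp4f6 was at 0.016 and Cyp27a1 at 0.063 with median centring, and Cyp27a1 at 0.038 with quantile normalization. Leaving out each rat, Cyp4f5 ran from -0.0047 to 0.54, Cyp4f6 from -0.30 to 0.14, Cyp2d1 from -0.57 to 0.91 and Cyp27a1 from -0.24 to 0.17. The cause of these changes was not tested. With a rat left out, only the other group shows a gene's own spread, and limma borrows the rest from other genes. The lone rat is assumed to vary like the others. A call from such a fit therefore rests on the spread of a single group and on that of other genes. This holds for Cyp2e1 without an obese rat, although its lean rats lay far apart (7.53 and 5.17). Signal near the olfactory level limits what can be said of 46 of the 67 genes.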
